A study of Mus musculus with 37 samples.

Results

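The glucocorticoid response genes are a set of 9 genes out of the 21975 in the deposited tables. They comprise the glucocorticoid receptor Nr3c1, the mineralocorticoid receptor Nr3c2, the receptor-bound immunophilin Fkbp5, and 6 genes that glucocorticoids are known to induce (Tsc22d3, Sgk1, Zbtb16, Cdkn1a, Ddit4 and Plin4). The members were taken by symbol through their Ensembl identifiers, and each of the 9 symbols matched 1 row in each table. Their RNA was measured in astrocytes isolated from mouse cortex 4 months after surgery, using beads that bind ACSA-2, a surface antigen of these cells. CCI-injured mice had a craniectomy and a severe controlled cortical impact on the right side, and continuous EEG video sorted them into mice with post-traumatic epilepsy (PTE+) and without it (PTE−). Sham mice, the controls, had the craniectomy without impact, and electrodes were implanted in sham and injured mice alike. The methods describe male CD1 mice, while the labels give the genotype as WT CD31. The ipsilateral cortex gave 19 libraries (5 sham, 10 PTE− and 4 PTE+), and the contralateral cortex gave 18 (5 sham, 9 PTE− and 4 PTE+). Both hemispheres were available for 17 mice (5 sham, 9 PTE− and 3 PTE+). The mouse is the replicate throughout.

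Glucocorticoids, in the mouse mainly corticosterone, leave the adrenal gland with a daily rhythm and under stress. They cross into the brain and bind the glucocorticoid receptor, which chaperones hold in the cytoplasm. The bound receptor enters the nucleus and attaches to DNA at glucocorticoid response elements, which are inverted repeats of a short half-site. The mineralocorticoid receptor binds the same elements and takes up corticosterone with a higher affinity. Astrocytes carry the glucocorticoid receptor and are among the brain cells that respond to the hormone. Hormone levels and the time of day of tissue collection are not given in the sources used here.

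The promoter windows of the members, from 250 bases before to 50 bases after each RefSeq transcript start (GRCm38.p6), were searched on both strands for the half-site AGAACA. They were also searched for the full element, written as GNACA and TGTNC with any 3 bases between them, which can overlap half-sites. Windows were found for 7 members, 15 windows in all. The half-site was present in 4 of the 15 windows, and in 18.97% of all 32851 windows in the RefSeq table. These member windows were alternative starts of Sgk1 and a start of Tsc22d3. No window of Nr3c2, Fkbp5, Cdkn1a, Ddit4 or Plin4 held the half-site. The full element was present in 1 member window, at a start of Sgk1, and in 0.475% of all windows. Sgk1 and Tsc22d3 each supplied several of the 15 windows, so the windows are not separate observations and these shares are a description. The Sgk1 stretch and the only Tsc22d3 stretch with a half-site are shown because these are the induced genes whose RNA differed most often below. Each covers the first 150 bases of its window, on the strand of the gene, and capitals mark half-sites and the full element.
Sgk1, chr10:21993640-21993789, plus strand: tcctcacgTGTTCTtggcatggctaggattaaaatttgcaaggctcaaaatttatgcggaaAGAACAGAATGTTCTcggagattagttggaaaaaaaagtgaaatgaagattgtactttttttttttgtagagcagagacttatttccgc
Tsc22d3, chrX:140600623-140600772, minus strand: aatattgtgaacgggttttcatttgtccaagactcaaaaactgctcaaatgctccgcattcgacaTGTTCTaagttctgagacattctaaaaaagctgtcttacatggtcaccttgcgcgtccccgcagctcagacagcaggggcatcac
In the Sgk1 stretch the full element started 188 bases before the transcript start and consisted of 2 half-sites facing each other. In the Tsc22d3 stretch the single half-site started 185 bases before the start. A match of letters is a description of the window and does not show binding.

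Levels are in TPM, a share of all transcripts in a library that is scaled for transcript length within each library, so that levels can be set beside each other between genes. The members spanned from well-expressed to nearly silent. Tsc22d3 had the highest mean level of the set (273 TPM over the ipsilateral and 306 TPM over the contralateral libraries), and only 536 and 461 of the 21975 genes had a higher mean. Nr3c1 came next (66.5 and 70.5 TPM), and its highest library, at 98.7 TPM, lay below the lowest Tsc22d3 library, at 156 TPM. Cdkn1a (22.7 and 22.3 TPM), Ddit4 (17.1 and 20.8 TPM), Sgk1 (14.8 and 18.2 TPM) and Nr3c2 (12.6 and 15.9 TPM) followed, with ranges over libraries that overlapped, so their order did not exceed the spread. Zbtb16 (2.93 and 3.05 TPM) and Fkbp5 (2.65 and 2.25 TPM) were low and overlapped each other. Plin4 was at most 0.99 TPM in any library.

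**Figure D1:**
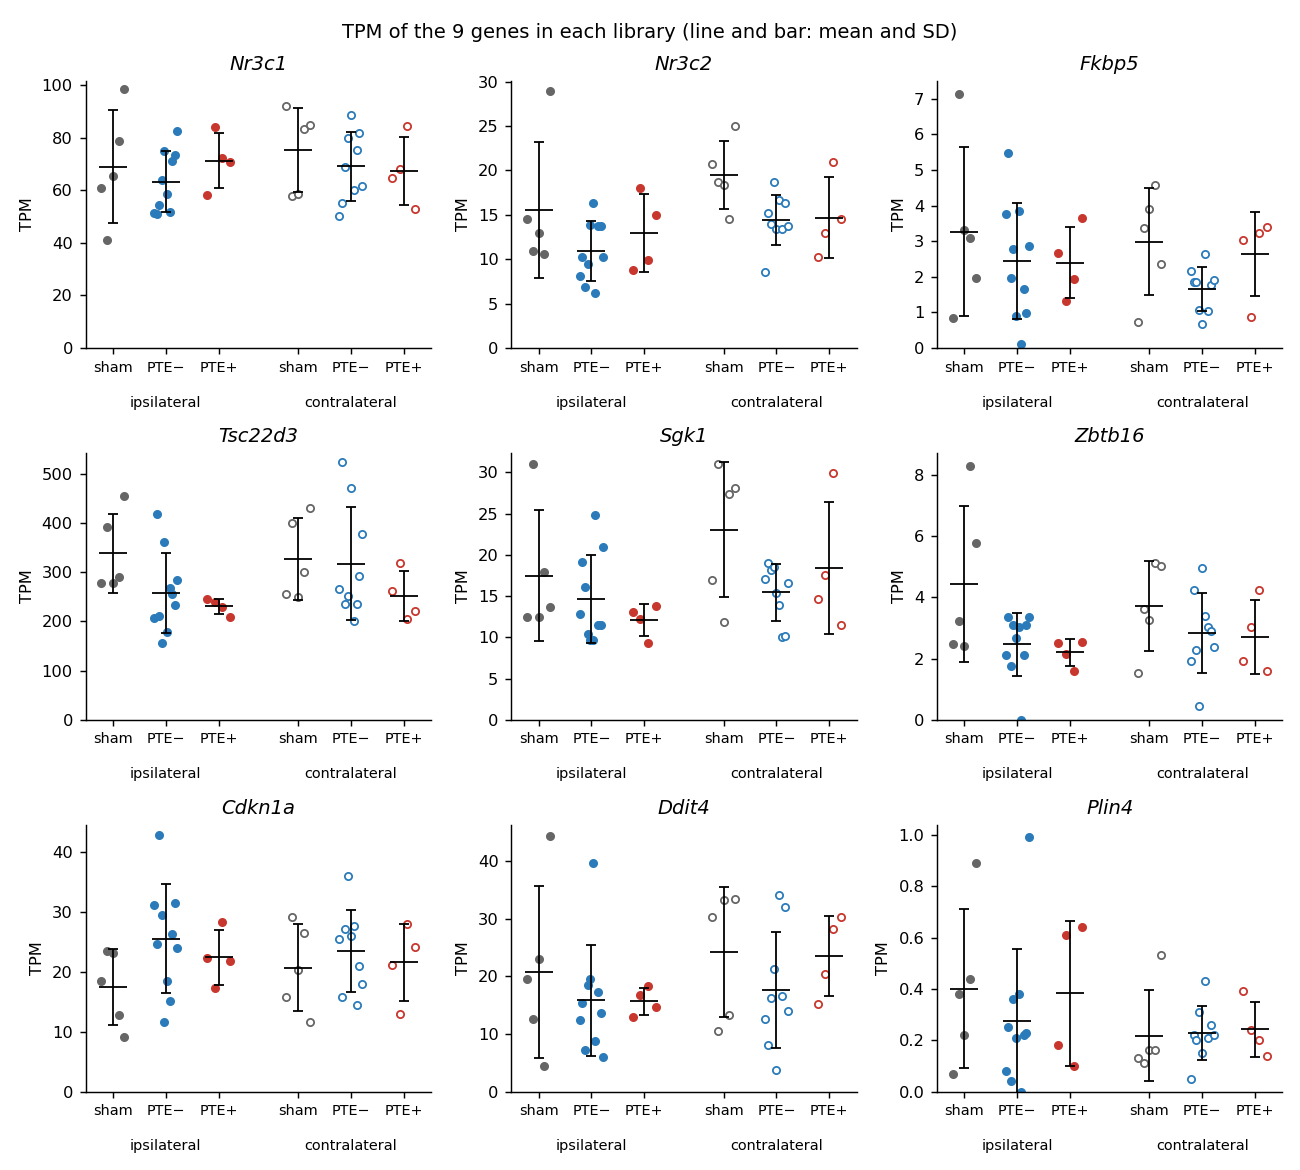
TPM of the 9 genes in every library by group, ipsilateral (filled points) and contralateral (open points), with the group mean as a line and the SD as a bar; each panel has its own axis from 0. Tsc22d3 in the ipsilateral PTE+ libraries (210 to 245 TPM) lay below every ipsilateral sham library (278 to 455 TPM), whereas the other panels show overlapping groups. The share of all genes that separate in this way is not given.

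Differences are given on the log2(TPM + 1) scale and were tested with limma over every gene whose mean exceeded 5 TPM in 1 or more of the groups compared. A gene was called where its unadjusted p was under 0.05 and it changed 1.2-fold or more, following the thresholds the study used. Fkbp5, Zbtb16 and Plin4 did not reach the 5 TPM filter in any of the 12 comparisons, so 6 of the 9 members were tested. They were called in 10 of 72 tests, 9 times lower and once higher, and these 10 calls fell on 3 genes: Tsc22d3, Nr3c2 and Sgk1. That is 13.9% of the members' tests, beside 3.25% of the 126351 tests of all genes pooled over the 12 comparisons. Among all tested genes, 57 were called higher and 371 lower in contralateral injured against sham mice, and after median centring 255 higher and 155 lower. No member had a Benjamini-Hochberg adjusted p under 0.05 in limma in any comparison. Many comparisons share libraries, so their calls are not separate observations. The members were also chosen with earlier results of these data known, so the share of their tests called is a description.

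The libraries held strong astrocyte RNA. The 10 astrocyte markers summed to between 14209 and 20576 TPM, against 113 to 522 TPM for 8 microglia markers and 36.0 to 785 TPM for 7 neuron markers. Oligodendrocyte markers (519 to 4451 TPM) and endothelial markers (263 to 1987 TPM) were present in every library and varied widely. Mural and fibroblast markers summed to between 742 and 4921 TPM, highest in the ipsilateral library of PTE− mouse 9_14. Blood markers summed to between 501 and 12599 TPM, highest in the ipsilateral library of sham mouse 9_10. In such bulk samples, fewer cells of a type and less RNA per cell cannot be told apart. The ipsilateral library of PTE− mouse 9_14 stood apart, with 10727 genes above 0 against 15599 to 18319 in the other ipsilateral libraries. The mouse names carry a prefix of 8 or 9 whose meaning the labels do not give, and differences are shown within each prefix beside each call.

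Nr3c1, which encodes the glucocorticoid receptor (ENSMUSG00000024431, chromosome 18, 39410545 to 39519421, minus strand in GENCODE vM21 on GRCm38), varied least of the tested members relative to its mean (a coefficient of variation of 21.3% over ipsilateral libraries). It measured 60.8, 41.0, 65.5, 78.8 and 98.7 TPM in the ipsilateral sham libraries and 58.4, 83.9, 72.2 and 70.8 TPM in the ipsilateral PTE+ libraries. The 10 ipsilateral PTE− libraries ran from 51.1 TPM through a median of 61.2 TPM to 82.6 TPM. The injured range lay inside the sham range. On the contralateral side the means were 75.3 ± 15.97 TPM in sham (SD, n = 5), 69.1 ± 13.1 in PTE− (n = 9) and 67.5 ± 12.9 in PTE+ (n = 4). Nr3c1 was called in none of the 12 comparisons. Its log2 fold change in injured against sham mice was −0.03 on the ipsilateral side (95% interval −0.37 to 0.30) and −0.13 on the contralateral side (−0.43 to 0.17). Within prefix 8 these were 0.15 and −0.19, and within prefix 9 they were −0.18 and −0.07. Ipsilateral Nr3c1 had a mean of 54.4 TPM in prefix 8 and 73.5 TPM in prefix 9. In the same 12 injured mice the ipsilateral level differed from the contralateral by −0.04 (−0.20 to 0.11), an interval that spans less than the fold threshold of 1.2 on either side.

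Nr3c2, which encodes the mineralocorticoid receptor (ENSMUSG00000031618, chromosome 8, 76899442 to 77245012, plus strand), was lower in contralateral astrocytes of injured mice than of sham mice. The contralateral sham libraries measured 20.7, 18.7, 18.3, 14.6 and 25.01 TPM. The 13 contralateral injured libraries ran from 8.52 TPM through a median of 13.95 TPM to 21.0 TPM, and 12 of the 13 lay below the sham median. The log2 fold change was −0.41 ± 0.16 (SE, limma unadjusted p = 0.0204, adjusted p = 0.978, two-sided exact permutation p = 0.0208). In this comparison 1 of 6 tested members was called, against 4.05% of all tested genes. Within prefix 8 the difference was −0.58, and within prefix 9 it was −0.28. Without contralateral sham mouse 9_11, the highest of the group, it was −0.32 and no longer called.

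The contralateral PTE− libraries had a mean of 14.4 ± 2.86 TPM (SD, n = 9) and the PTE+ libraries a mean of 14.7 ± 4.56 TPM (n = 4), against 19.5 ± 3.81 TPM in sham (n = 5). All 9 PTE− libraries were below the sham median. Nr3c2 was called in PTE− against sham (log2 fold change −0.41 ± 0.17, limma p = 0.0263, adjusted p = 0.961, exact permutation p = 0.0195). With Sgk1 it made 2 of 6 tested members called in that comparison, against 3.76% of all tested genes. The values within prefixes 8 and 9 were −0.50 and −0.35. Neither call was kept when each library was centred on its median, which moved the median over all tested genes from −0.09 to 0.03 on the log2 scale and Nr3c2 to −0.29. Without sham mouse 8_15 (−0.39) or 9_11 (−0.32) Nr3c2 also lost its call. In PTE+ against sham Nr3c2 had a similar log2 fold change of −0.41 but a wider interval (−0.91 to 0.09), and no member was called there, against 1.97% of all tested genes.

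On the ipsilateral side the mean levels of Nr3c2 were 15.6 ± 7.63 TPM in sham (SD, n = 5), 10.9 ± 3.38 in PTE− (n = 10) and 12.9 ± 4.36 in PTE+ (n = 4), with the sham mean raised by mouse 9_11 at 28.9 TPM. The log2 fold change in injured against sham mice was −0.37 (95% interval −0.89 to 0.15) and was not called. Without mouse 9_11 it was −0.13.

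Nr3c2 was also lower on the ipsilateral side within mice, in injured and in sham mice alike. Of the 12 injured mice with both hemispheres, 10 had less Nr3c2 on the side of the impact, with differences from −0.92 to 0.05. The mean difference was −0.32 ± 0.10 (SE, limma p = 0.00498, adjusted p = 0.284), with a two-sided exact sign-flip permutation p of 0.00391. Within prefix 8 it was −0.52 and within prefix 9 it was −0.18. In the 5 sham mice the pairs of ipsilateral and contralateral levels were 14.5 and 20.7, 10.95 and 18.7, 12.9 and 18.3, 10.6 and 14.6, and 28.9 and 25.01 TPM, so that 4 of 5 were lower on the operated side. The mean difference in sham mice was −0.38 ± 0.16 (limma p = 0.0399, adjusted p = 0.673), and −0.60 and −0.23 within the prefixes. The exact test allows no p below 0.0625 with 5 mice and gave 0.125. The sham call was lost under median centring (−0.26, with the median over all tested genes again moving from −0.09 to 0.03) and without any of the mice 8_15, 8_16, 9_9 and 9_10 (−0.30 to −0.37). The hemisphere difference itself differed between injured and sham mice by 0.06 (95% interval −0.33 to 0.44).

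Fkbp5 encodes a co-chaperone that lowers the hormone affinity of the receptor and is itself induced by it, which forms a short feedback loop (ENSMUSG00000024222, chromosome 17, 28399094 to 28517527, minus strand). It stayed below the 5 TPM filter. With that filter lowered to 1 TPM, limma called it in 1 of the 12 comparisons, the hemisphere difference of PTE+ against PTE− mice. The ipsilateral means were 3.27 ± 2.38 TPM in sham (SD, n = 5), 2.44 ± 1.63 in PTE− (n = 10) and 2.395 ± 1.0002 in PTE+ (n = 4), and the contralateral means were 2.99 ± 1.501, 1.66 ± 0.615 and 2.64 ± 1.19 TPM (n = 5, 9 and 4). The hemispheres were ordered differently in PTE+ and PTE− mice. In the 3 PTE+ mice the ipsilateral and contralateral levels were 2.67 and 3.04, 1.33 and 3.24, and 1.93 and 3.41 TPM, lower on the ipsilateral side in 3 of 3. In the 9 PTE− mice Fkbp5 was higher on the ipsilateral side in 8 of 9, with differences from −0.47 to 1.18 on the log2(TPM + 1) scale. The hemisphere difference of PTE+ mice minus that of PTE− mice was −0.93 on that scale (exact permutation p = 0.0136 over 220 arrangements of the mice, limma p = 0.00890 and adjusted p = 0.991 at the 1 TPM filter). Within prefix 8, with 1 PTE+ mouse, it was −0.82, and within prefix 9 it was −0.91. How many reads lie behind a TPM near 2 is not known, because TPM do not keep that number. Deviations of Fkbp5 from its group means followed those of the summed neuron markers (r = 0.71 ipsilaterally, n = 19, and 0.46 contralaterally, n = 18). Ipsilateral minus contralateral, that sum differed by 0.21 in PTE− and −0.43 in PTE+ mice (SD 0.95 and 0.83, log2 scale). It was lower ipsilaterally in 2 of 9 and 2 of 3 mice. Its part in the Fkbp5 difference was not tested.

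Tsc22d3 encodes GILZ, a leucine zipper protein that glucocorticoids induce and that dampens inflammatory transcription (ENSMUSG00000031431, chromosome X, 140539528 to 140600659, minus strand). It was lower in ipsilateral astrocytes of injured mice. The ipsilateral sham libraries measured 279, 391, 278, 290 and 455 TPM, and the ipsilateral PTE+ libraries measured 245, 238, 230 and 210 TPM. The 10 PTE− libraries ran from 156 TPM through a median of 244 TPM to 418 TPM. The PTE+ group lay wholly below the sham group, and the PTE− group spread across it, with 7 of 10 libraries below every sham library. The share of all genes that separate PTE+ from sham in this way is not given here.

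In injured against sham mice the ipsilateral log2 fold change of Tsc22d3 was −0.45 ± 0.18 (SE, limma p = 0.0182, adjusted p = 0.9997, exact permutation p = 0.0277), and 11 of 14 injured libraries lay below every sham library. It was the only member called of 6 tested, against 1.62% of all tested genes. The difference was −0.50 within prefix 8 and −0.43 within prefix 9, and −0.47 without library 9_14. Leaving out sham mouse 9_11 (−0.34) or 8_16 (−0.40), the sham mice with the highest Tsc22d3, ended the call. In PTE+ against sham it was −0.52 ± 0.17 (limma p = 0.00862, adjusted p = 0.99996, exact permutation p = 0.0238, the smallest possible p being 0.00794), again the only member called of 6, against 1.56% of all tested genes. Within the prefixes it was −0.43, with 1 PTE+ mouse, and −0.56. In PTE− against sham it was −0.43 (95% interval −0.86 to 0.01) and was not called, like the other members, against 1.54% of all tested genes. The 3 comparisons use the same 5 sham libraries.

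On the contralateral side the Tsc22d3 groups overlapped. The sham libraries measured 255, 401, 250, 301 and 430 TPM, the PTE+ libraries 262, 318, 204 and 222 TPM, and the PTE− libraries ran from 201 TPM through a median of 267 TPM to 524 TPM. The log2 fold change was −0.17 in injured against sham mice (95% interval −0.59 to 0.25) and −0.36 in PTE+ against sham (−0.80 to 0.07).

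Within injured mice Tsc22d3 was lower on the ipsilateral side in 9 of 12, by 0.21 on average (a difference of −0.21 ± 0.07, limma p = 0.00868, adjusted p = 0.330, exact sign-flip permutation p = 0.0176), which missed the fold threshold of 1.2. In the 5 sham mice the hemispheres differed by 0.05 ± 0.09, within a range of −0.06 to 0.15. The test of the difference between these differences gave −0.27 ± 0.12 (limma p = 0.0381, adjusted p = 0.709, exact permutation p = 0.0436), a call for 1 of 6 tested members against 6.5% of all tested genes. It was −0.37 within prefix 8 and −0.19 within prefix 9. The call was lost without sham mouse 8_15, 9_9 or 9_11, and under quantile normalization, where the difference fell short of the fold threshold (−0.25). Under median centring it was −0.39 and stayed called, with the median over all tested genes moving from 0.08 to −0.04. Among injured mice, 8 of 9 PTE− mice were lower on the ipsilateral side (mean −0.30), and 1 of 3 PTE+ mice was (mean 0.06). In TPM the 3 PTE+ mice had 245 and 262, 238 and 204, and 230 and 222 on the ipsilateral and contralateral side. The hemisphere difference was 0.36 ± 0.14 higher in PTE+ than in PTE− mice (limma p = 0.0216, adjusted p = 0.995, exact permutation p = 0.0227), the only call that was higher, for 1 of 6 tested members against 3.09% of all tested genes. Within prefix 8, with 1 PTE+ mouse, it was 0.29, and within prefix 9 it was 0.38. It rests on 3 PTE+ mice, and without mouse 9_17 it was 0.28 and not called.

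Sgk1 encodes the serum- and glucocorticoid-regulated kinase, which acts on ion channels and transporters (ENSMUSG00000019970, chromosome 10, 21882184 to 21999903, plus strand). Its contralateral levels were 16.95, 31.1, 11.9, 27.3 and 28.1 TPM in sham libraries and 14.7, 17.5, 29.9 and 11.5 TPM in PTE+ libraries, and the 9 PTE− libraries ran from 10.04 TPM through a median of 16.6 TPM to 19 TPM. All 9 PTE− libraries lay below the sham median, while sham mouse 9_9 lay among the lowest libraries. In contralateral PTE− against sham the log2 fold change was −0.50 ± 0.22 (limma p = 0.0378, adjusted p = 0.961, exact permutation p = 0.0524), so that the exact test did not reach 0.05. The values within the prefixes were −0.32 and −0.65. Median centring (−0.38) and leaving out sham mouse 8_16, 9_10 or 9_11 (−0.38 to −0.42) ended the call. In all injured mice against sham it was −0.44 (95% interval −0.90 to 0.02).

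Within injured mice Sgk1 was lower on the ipsilateral side by −0.29 ± 0.12 (limma p = 0.0297, adjusted p = 0.471, exact sign-flip permutation p = 0.0459). Of the 12 mice, 8 had this direction, with differences from −1.23 to 0.32, and the values within the prefixes were −0.30 and −0.28. With Nr3c2 it made 2 of 6 tested members called in the comparison of hemispheres in injured mice, against 4.51% of all tested genes. Without PTE+ mouse 9_17, which had 12.2 TPM ipsilaterally and 29.9 TPM contralaterally, it was −0.20 and not called. In sham mice Sgk1 had a mean difference of −0.39 (95% interval −0.77 to 0.00) and was not called, so that Nr3c2 was the only member called there, against 6.91% of all tested genes.

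**Figure D2:**
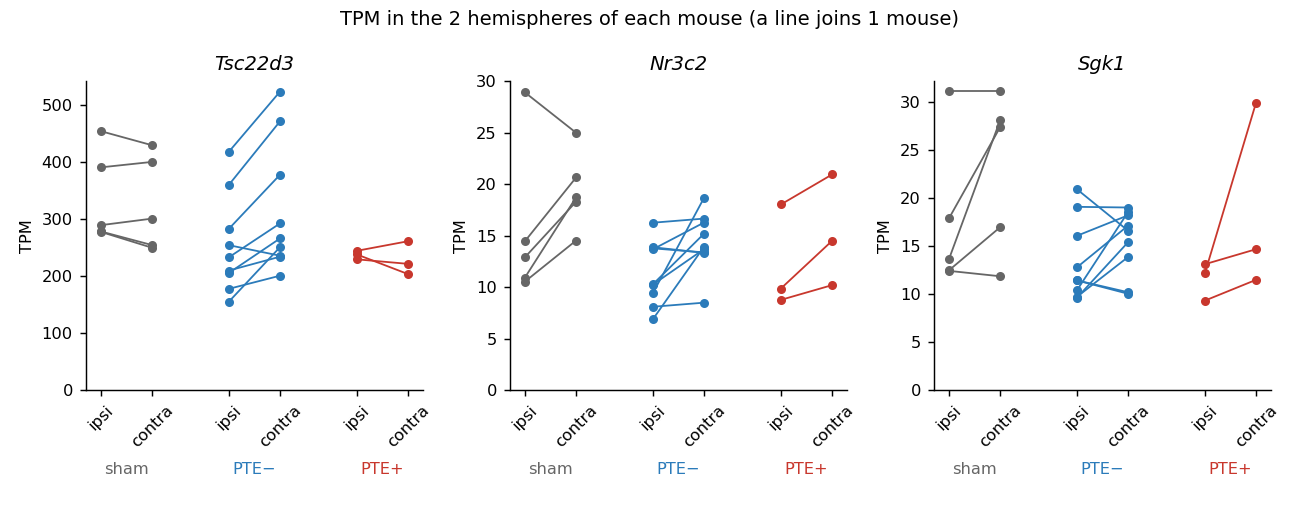
TPM of Tsc22d3, Nr3c2 and Sgk1 in the ipsilateral and contralateral cortex, where each line joins the hemispheres of 1 mouse (5 sham, 9 PTE− and 3 PTE+). Tsc22d3 was lower on the ipsilateral side in 8 of 9 PTE− mice and nearly level in the sham mice, and Nr3c2 was lower there in 10 of 12 injured and 4 of 5 sham mice.

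Cdkn1a encodes p21, an inhibitor of cyclin-dependent kinases that holds cells out of the cycle (ENSMUSG00000023067, chromosome 17, 29090976 to 29100727, plus strand). Its ipsilateral levels were 18.5, 23.5, 23.1, 12.9 and 9.05 TPM in sham libraries and 22.2, 17.2, 28.3 and 21.8 TPM in PTE+ libraries, with PTE− libraries from 11.5 TPM through a median of 25.5 TPM to 42.8 TPM. Of the 14 injured libraries 8 lay above every sham library. The log2 fold change of 0.49 ± 0.25 (95% interval −0.03 to 1.01, limma p = 0.0651, exact permutation p = 0.0721) was not called. It was called without library 9_14 (0.53, limma p = 0.0334), with the prefix as a covariate (0.51, limma p = 0.0331) and without sham mouse 8_16 or 9_9 (both 0.61), whereas without sham mouse 9_11 it was 0.29 and not called. Within prefix 8 it was 0.47, and within prefix 9 it was 0.53. On the contralateral side the log2 fold change was 0.16 (95% interval −0.29 to 0.61).

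Ddit4 encodes REDD1, which restrains the growth kinase complex mTORC1 and responds to low oxygen and energy stress as well as to glucocorticoids (ENSMUSG00000020108, chromosome 10, 59949669 to 59951834, minus strand). It spread more than any other tested member, from 4.50 to 44.3 TPM over the ipsilateral and 3.71 to 34.1 TPM over the contralateral libraries. The extremes lay inside single groups, with 4.50 TPM in sham mouse 9_10 and 44.3 TPM in sham mouse 9_11. It was called in none of the 12 comparisons, and its intervals were wide, from −0.99 to 0.60 in ipsilateral and −1.12 to 0.46 in contralateral injured against sham mice.

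Zbtb16 encodes the zinc finger repressor PLZF (ENSMUSG00000066687, chromosome 9, 48654297 to 48836222, minus strand). Its ipsilateral levels were 2.48, 3.21, 2.42, 8.30 and 5.77 TPM in sham libraries and 2.51, 2.14, 1.60 and 2.55 TPM in PTE+ libraries, and PTE− libraries had a median of 2.85 TPM and a highest value of 3.36 TPM. The lowest PTE− library, mouse 9_14, is listed at 0. The difference between injured and sham mice was −0.64 on the log2(TPM + 1) scale (exact permutation p = 0.0428), and the sham mice 9_10 and 9_11 had the highest values of all. Without library 9_14 it was −0.51, and without sham mouse 9_10 it was −0.41. Within prefix 8 it was −0.12, and within prefix 9 it was −0.97. The gene was below the 5 TPM filter, and with that filter lowered to 1 TPM limma called it (p = 0.0431, adjusted p = 0.9998). Plin4 encodes a coat protein of lipid droplets (ENSMUSG00000002831, chromosome 17, 56100591 to 56109803, minus strand), and its group means lay between 0.218 and 0.400 TPM, too low for a comparison.

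No member was called between PTE+ and PTE− mice in either hemisphere, against 0.573% of all tested genes on the ipsilateral and 2.79% on the contralateral side. The lowest limma p of a tested member was 0.258 ipsilaterally and 0.190 contralaterally. Over all tested genes the ipsilateral log2 fold changes had a median of 0.12. For Tsc22d3 the 95% interval was −0.54 to 0.35 ipsilaterally and −0.77 to 0.21 contralaterally. For Nr3c1 it was −0.14 to 0.50 and −0.37 to 0.31, for Nr3c2 −0.36 to 0.82 and −0.42 to 0.42, and for Sgk1 −0.76 to 0.37 and −0.30 to 0.67. The PTE+ group held 4 libraries on each side.

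**Figure D3:**
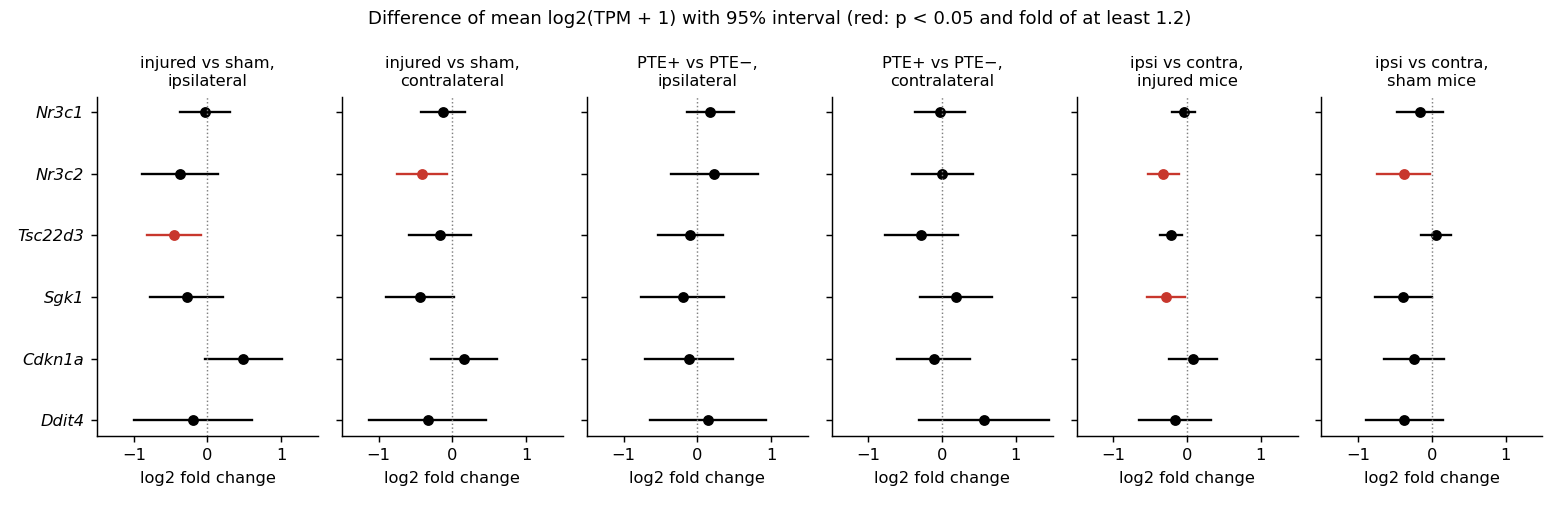
Log2 fold changes of the 6 tested members (points) with 95% intervals (lines) in 6 of the 12 comparisons, with calls in red. Nr3c2 was called in 3 of the panels shown, Tsc22d3 in ipsilateral injured against sham mice, and Sgk1 between the hemispheres of injured mice, and both PTE+ against PTE− panels hold no call.

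The machinery around the receptor was taken from a list of 14 genes for chaperones, corticosterone-converting enzymes, coregulators and a steroid exporter, of which 12 were tested. The chaperones Hspa8 (873 TPM over ipsilateral libraries), Hsp90ab1 (461 TPM) and Hsp90aa1 (368 TPM), which hold the receptor ready for hormone, were abundant. Hsd11b1, the enzyme that regenerates active corticosterone, had a mean of 297 TPM ipsilaterally and 308 TPM contralaterally. Hsd11b2, which inactivates corticosterone and shields the mineralocorticoid receptor in kidney, had a mean of at most 0.13 TPM in either hemisphere. None of the 12 tested genes was called in the ipsilateral comparisons of groups, against 0.573% to 1.62% of all tested genes. Their median log2 fold change in injured against sham mice was 0.09, beside −0.01 for all tested genes. On the contralateral side Ncor1, a corepressor, was lower in injured mice (89.2 ± 19.3 TPM, SD, n = 13) than in sham (115 ± 23.8 TPM, n = 5). Its log2 fold change was −0.36 (limma p = 0.0206, adjusted p = 0.978), and −0.36 in PTE− against sham. In injured against sham mice 1 of 12 was called, against 4.05% of all tested genes. Ncor1 was also lower on the ipsilateral side within sham mice (−0.38). Abcb1a, the P-glycoprotein exporter of blood vessel walls, was lower in contralateral PTE− against sham (−0.53) and on the ipsilateral side within sham mice (−0.97, limma p = 0.00120, adjusted p = 0.673). Its hemisphere difference was higher in injured than in sham mice (0.70). With Ncor1 it made 2 of 12 called in contralateral PTE− against sham, against 3.76% of all tested genes. Within sham mice 2 of 12 were called, against 6.91%, and in the hemisphere difference 1 of 12, against 6.5%.

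Of 18 further glucocorticoid targets, 15 to 17 were tested in each comparison. The metallothioneins Mt1 (6588 TPM over ipsilateral libraries) and Mt2 (1388 TPM) and the glutamine synthetase gene Glul (2211 TPM) were the most abundant. In ipsilateral injured against sham mice 0 of 17 passed the call, against 1.62% of all tested genes, with a median log2 fold change of −0.05 beside −0.01 for all tested genes. In ipsilateral PTE+ against sham 1 of 17 was called, against 1.56% of all tested genes. It was Dusp1, a phosphatase of MAP kinases, at −0.84 (limma p = 0.0252, adjusted p = 0.99996). In contralateral injured against sham mice 2 of 17 were called, against 4.05% of all tested genes. Both were lower, Mt2 at −0.36 and Lcn2, a siderophore-binding protein that reactive astrocytes make, at −1.67. Mt2 (−0.53) and Cebpd (−0.50), a transcription factor, were lower in contralateral PTE+ against sham, and the clock gene Per1 (−0.57) was lower in contralateral PTE− against sham. These were 2 of 17, against 1.97% of all tested genes, and 1 of 17, against 3.76%. Between the hemispheres of injured mice, Dusp1 (−0.35) and Rasd1, a dexamethasone-induced Ras protein (−0.49), were lower and Lcn2 higher (2.04, limma p = 5.8e-04, adjusted p = 0.126) on the ipsilateral side. Rasd1 was lower there in sham mice too (−0.87), and the Lcn2 hemisphere difference was higher in injured than sham mice (2.09). Between hemispheres 1 higher and 2 lower of 16 were called in injured mice, against 4.51% of all tested genes. In sham mice 1 of 17 was called, against 6.91%, and in the hemisphere difference 1 of 17, against 6.5%. Lcn2 ran from 0 to 78.6 TPM in the contralateral libraries, with a median of 0.81 TPM in sham, so its values hang on few animals. The filter needs a mean above 5 TPM in only 1 of the groups compared, which a few high libraries can supply. The Lcn2 calls, and the counts that include them, are therefore a description. No target was called between PTE+ and PTE− mice in either hemisphere, against 0.573% of all tested genes ipsilaterally and 2.79% contralaterally.

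Other cell types moved with some of these comparisons, and their part in the members' differences was not tested. In ipsilateral injured against sham mice, where Tsc22d3 was lower, 3 of 7 tested oligodendrocyte markers were called lower, against 1.62% of all tested genes. Their median log2 fold change was −1.23, beside −0.01 for all tested genes. Their sum over 8 markers ranged from 519 to 4451 TPM in sham, 774 to 2257 TPM in PTE− and 1180 to 2308 TPM in PTE+ libraries. Over ipsilateral libraries the deviation of Tsc22d3 from its group mean ran against that of this sum (r = −0.50, n = 19). In ipsilateral PTE+ against sham, 6 of 8 tested immediate early genes were called lower, against 1.56% of all tested genes. The sum of that list ranged from 172 to 298 TPM in PTE+ and from 262 to 1074 TPM in sham libraries. Its correlation with Tsc22d3 was weak (r = 0.16, n = 19). Between hemispheres, 3 of 7 tested oligodendrocyte markers were called lower on the ipsilateral side in injured and 0 of 7 in sham mice (medians −0.55 and 0.08). Over all tested genes 4.51% and 6.91% were called. In the same comparisons 3 of 7 tested endothelial markers were called lower on the ipsilateral side in injured and in sham mice (medians −0.37 and −0.40). Nr3c2 was called lower in both, and Sgk1 only in injured mice, although its mean difference in sham mice was −0.39. Sgk1 followed the summed endothelial markers on the contralateral side (r = 0.68, n = 18) and less so on the ipsilateral side (r = 0.36, n = 19), while Nr3c2 ran against them on the ipsilateral side (r = −0.65, n = 19) more than on the contralateral (r = −0.25, n = 18). In contralateral PTE− against sham, where Nr3c2 and Sgk1 were called, 1 of 7 tested endothelial markers was called lower, against 3.76% of all tested genes. The median of the endothelial markers was −0.28 beside −0.09 for all tested genes. Blood markers, of which 4 of 4 tested were called lower ipsilaterally in injured mice, followed Sgk1 contralaterally (r = 0.78, n = 18) and hardly ipsilaterally (r = 0.087, n = 19). No listed marker of these types was at 0 in every library of a group.

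Mice with much Tsc22d3 in 1 hemisphere had much in the other. Over the 17 mice with both hemispheres, with the means of the 3 groups removed, the ipsilateral and contralateral deviations of Tsc22d3 had r = 0.90 and Spearman rho = 0.82, and only 0.745% of the 10065 genes above 5 TPM in both tables had a higher r. With the 2 mice farthest from the median left out r was 0.81, and with the prefix of the mouse name also removed it was 0.91. PTE− mouse 8_11, for example, had 418 TPM ipsilaterally and 524 TPM contralaterally, and PTE− mouse 8_14 had 156 and 251 TPM. The median r over the 10065 genes was 0.49. Nr3c2 (r = 0.64, rho = 0.54), Nr3c1 (0.58 and 0.57) and Sgk1 (0.52 and 0.50) lay closer to that median, as did Fkbp5 (0.66 and 0.70), while Ddit4 (0.41 and 0.58), Zbtb16 (0.38 and 0.38) and Cdkn1a (0.20 and 0.21) lay lower on the r scale. Plin4, nearly silent, had r = 0.48 and rho = 0.55. Without the 2 farthest mice r was 0.20 for Ddit4 and 0.11 for Cdkn1a. The hemispheres of a mouse share the animal, and whether they were handled together is not given. These 9 correlations are a description.

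**Figure D4:**
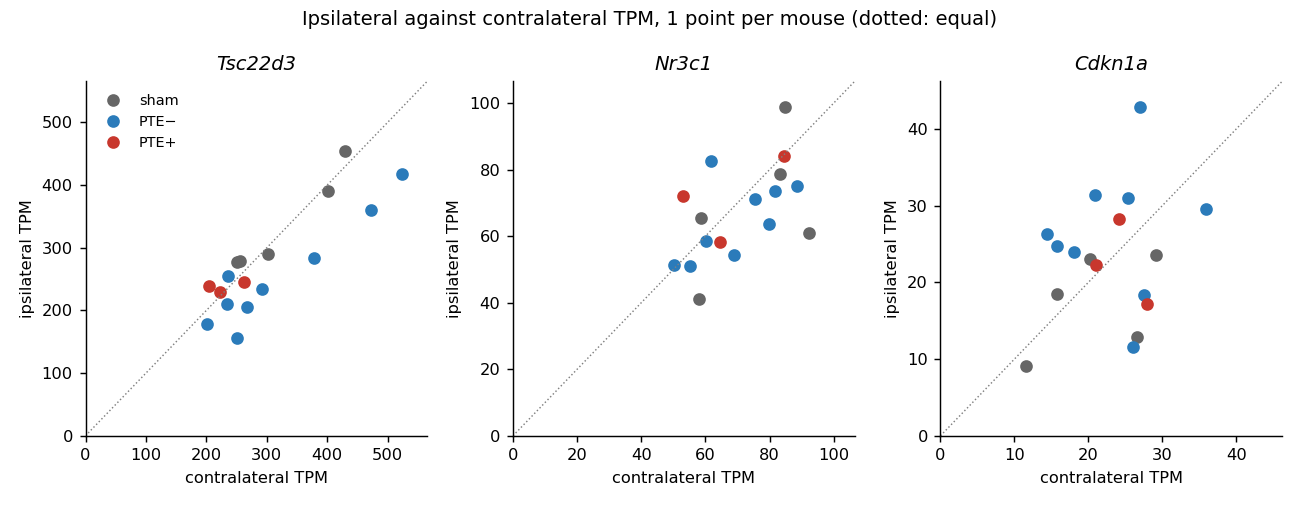
Ipsilateral against contralateral TPM of Tsc22d3, Nr3c1 and Cdkn1a, 1 point per mouse (17 mice) coloured by group, with a dotted line of equality. Tsc22d3 lines up closely (r = 0.90 after removal of group means), Nr3c1 less so (r = 0.58), and Cdkn1a scatters (r = 0.20).

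The members' levels from mouse to mouse were described over 19 ipsilateral and 18 contralateral libraries after removal of group means. Of the 36 pairs of members, 18 had rho above 0 in both hemispheres, 10 below 0 in both and 8 opposite signs. Nr3c2 and Ddit4 had the same direction in both hemispheres with rho = 0.72 ipsilaterally (r = 0.70) and 0.64 contralaterally (r = 0.48). Sgk1 and Ddit4 ran against each other, with rho = −0.81 (r = −0.62) and −0.36 (r = −0.36). Nr3c1 and Nr3c2, both receptors, had rho = 0.55 and 0.36, and Nr3c2 and Plin4 had rho = 0.53 and 0.35. Zbtb16 and Plin4, both low, had rho = 0.73 and 0.17. The induced genes Tsc22d3 and Sgk1 had rho = 0.46 and 0.34, and Tsc22d3 and Fkbp5 had rho = −0.14 and −0.26. Nr3c1 and Tsc22d3, receptor and target, had rho = 0.12 and 0.05. Against the summed levels of the 18 further glucocorticoid targets, Tsc22d3 had r = 0.76 ipsilaterally and 0.60 contralaterally. Without the 2 farthest libraries these were 0.65 and 0.48. With the same sum Sgk1 had r = 0.43 and 0.15, Fkbp5 −0.11 and −0.42, and Ddit4 −0.08 and −0.58. With the summed receptor-handling genes Tsc22d3 had r = −0.65 and −0.31. Without library 9_14 the ipsilateral rho was 0.68 for Nr3c2 with Ddit4, −0.83 for Sgk1 with Ddit4 and 0.39 for Tsc22d3 with Sgk1. With the prefix of the mouse name also removed, Nr3c1 with Nr3c2 had rho = 0.35 ipsilaterally and 0.38 contralaterally. Nr3c2 with Ddit4 then had 0.66 and 0.61, Sgk1 with Ddit4 −0.75 and −0.33, and Tsc22d3 with Sgk1 0.50 and 0.40.

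**Figure D5:**
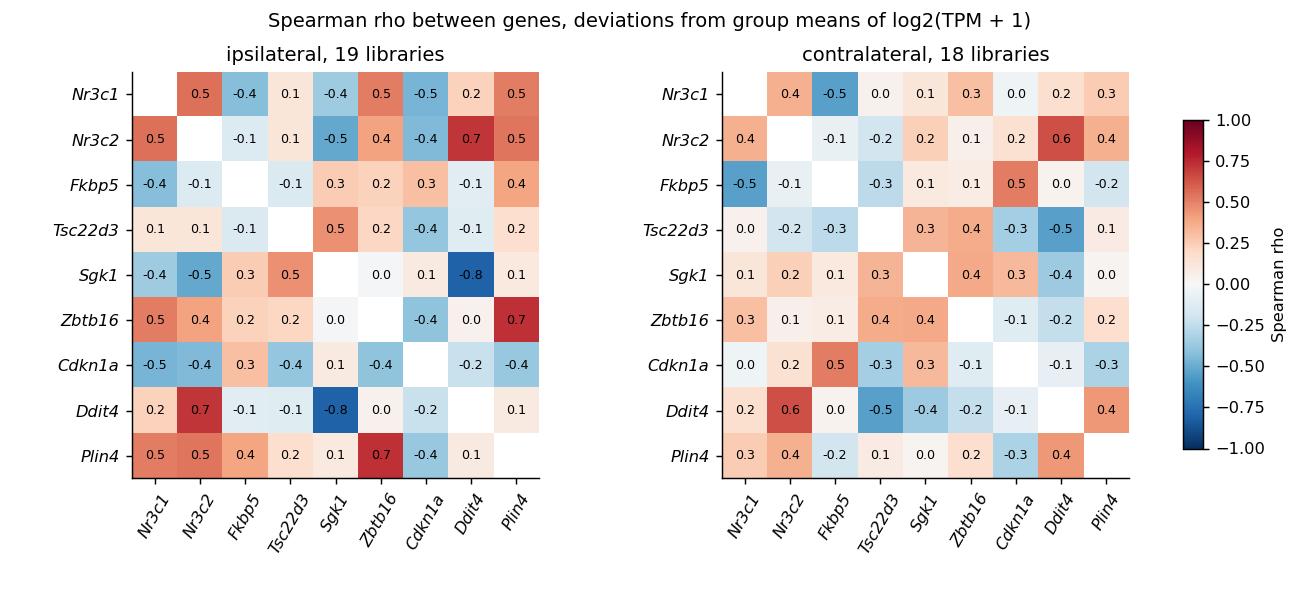
Spearman rho between the 9 genes over 19 ipsilateral and 18 contralateral libraries, computed on deviations from group means of log2(TPM + 1), from blue (−1) to red (1). Nr3c2 with Ddit4 is red in both panels (0.72 and 0.64), and Sgk1 with Ddit4 is blue in both (−0.81 and −0.36).

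For the 6 members above 5 TPM in both hemispheres, the genes with the most similar deviations were ranked by the lower of the ipsilateral and contralateral rho over 10065 genes. For Tsc22d3 they were Herpud1, a stress protein of the endoplasmic reticulum (lower rho 0.84), Coq10b (0.78) and Cables1 (0.75). For Nr3c1 they were Fam13c (0.87), the potassium channel gene Kcnn3 (0.85) and Ccdc88a (0.85). For Nr3c2 they were the transcription factor gene Sox6 (0.82), Ctnnd2 (0.81) and Chd2 (0.79). For Sgk1 they were the interferon-induced genes Ifit1 (0.71) and Usp18 (0.71), and 2010111I01Rik (0.68). For Cdkn1a they were Iah1 (0.69), the chaperone gene Hsp90aa1 (0.66) and 1110017D15Rik (0.64), and for Ddit4 they were Lrrc4b (0.87), Gpr162 (0.86) and Ppme1 (0.85). Nr3c1 also followed the summed astrocyte markers on the ipsilateral side (r = 0.77, rho = 0.86, n = 19), less so on the contralateral side (r = 0.30, n = 18).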

How the data were processed

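RNA of mouse cortical astrocytes was measured by RNA-seq in 37 libraries, 19 ipsilateral and 18 contralateral. The authors prepared SMART-Seq v4 libraries, trimmed reads with Trim Galore (0.6.4), mapped them to mm10 with Bowtie2 (2.4.1), estimated expression with RSEM (1.2.28) and deposited the TPM values of Ensembl genes, in 1 table per hemisphere. They called genes with DESeq2 (1.36.0) on raw counts, which are not used here. By their account 1 PTE+ and 1 PTE− animal were left out. The libraries used here come from 15 injured mice. PTE+ mouse 8_17 has no ipsilateral library, and PTE+ mouse 9_19 and PTE− mouse 9_14 have no contralateral library. TPM keep no depth, so counting error is unknown and the limma test took the place of a count test. Symbols and positions came from GENCODE vM21, and 21856 of 21975 identifiers matched a symbol.

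Values were log2(TPM + 1), with a pseudocount of 1, which understates changes of low genes. limma (3.58.1, R 4.3.3) with a variance trend was fitted over genes whose mean exceeded 5 TPM in 1 or more of the groups compared, and p-values were adjusted over all of them (Benjamini-Hochberg). Hemispheres were compared on within-mouse differences, so the mouse is a block. The labels give the mouse, and over 10065 genes the hemispheres of a mouse deviated from their group means together (median correlation 0.43, above 0.1 in 16 of 17 mice). Exact permutation and sign-flip tests over mice, two-sided, used Python 3.11.15 with numpy 2.4.6, pandas 2.3.3 and scipy 1.17.1. The fits were tested on simulated data. Sham against injured mice, PTE+ against PTE−, each against sham, and hemispheres within mice made 12 comparisons.

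The members and gene lists were chosen with earlier results of these data known. Text names the 9 members throughout, called genes of the lists for receptor handling and other glucocorticoid targets, and the 3 genes most like each member with a mean above 5 TPM in both tables. The chaperones, converting enzymes, metallothioneins and Glul named for their levels alone were chosen after their values were seen. Alternatives were a pseudocount of 0.1, filters at 1 TPM or none, median centring, quantile normalization, array weights, a fold of 1.5, the mouse name prefix as a covariate, a fit of all 3 groups, no replicate block, and leaving out each sham mouse, each PTE+ mouse and PTE− mouse 9_14.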

Additional observations from a re-analysis of the deposited data

Results flagged for a closer look

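In 54 groups of 4 to 10 libraries (9 members in 6 groups), 6 values stood far from the rest of their group by Dixon's criterion, which chance meets in about 1 of 20 groups. Nr3c2 was 28.9 TPM in the ipsilateral library of sham mouse 9_11, above 10.6 to 14.5 TPM in the other sham mice. Ddit4 was 39.6 TPM in the ipsilateral library of PTE− mouse 9_13. Fkbp5 was 0.87 TPM in the contralateral library of PTE+ mouse 8_17. Zbtb16 is listed at 0 in the ipsilateral library of PTE− mouse 9_14. Plin4 was 0.99 TPM in the ipsilateral library of PTE− mouse 9_20 and 0.53 TPM in the contralateral library of sham mouse 9_11.

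The hemisphere difference of Tsc22d3 differed between groups in both tests made. It was lower in injured than in sham mice by −0.27 on the log2 scale, and higher in PTE+ than in PTE− mice by 0.36. The tests share the same 9 PTE− mice, whose mean difference was −0.30, beside 0.06 in the 3 PTE+ and 0.05 in the 5 sham mice. Neither test had an adjusted p under 0.05 in limma.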

How the results depend on the processing

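The main settings called 1, 0, 0 and 1 members in the ipsilateral comparisons of injured with sham, PTE+ with PTE−, PTE− with sham and PTE+ with sham, 1, 0, 2 and 0 in the contralateral ones, 2 and 1 between hemispheres of injured and sham mice, and 1 each in the 2 tests of hemisphere differences. Of 1728 fold changes of members under alternatives, 0 reversed, 1654 kept their direction and side of the thresholds, 40 weakened, 25 strengthened and 9 moved. A fold threshold of 1.5 left 0 calls everywhere, by construction. Filters at 1 TPM or none gave 2 calls in ipsilateral injured against sham mice (Zbtb16 added) and 2 in the hemisphere difference of PTE+ against PTE− (Fkbp5 added), and the prefix covariate gave 2 in injured against sham mice on either side. The fit of all 3 groups, and quantile normalization, gave 1 in ipsilateral PTE− against sham. Median centring and quantile normalization gave 0 in contralateral PTE− against sham and 0 within sham mice, and quantile normalization 0 in the hemisphere difference of injured against sham mice. Array weights gave 1 in contralateral PTE− against sham, 1 in contralateral PTE+ against sham, 1 within injured mice and 2 within sham mice. Leaving out single sham mice, single PTE+ mice and PTE− mouse 9_14, where each took part, gave ranges of 0 to 2, 0 to 0, 0 to 1 and 1 to 1 in the ipsilateral comparisons, 0 to 2, 0 to 0, 0 to 2 and 0 to 1 in the contralateral ones, 1 to 2 within injured mice, 0 to 2 within sham mice, and 0 to 1 in each test of hemisphere differences. No other PTE− mouse was left out. Over all tested genes the number called ranged with the setting from 89 to 843 (main 169), 23 to 441 (60), 95 to 650 (161) and 83 to 1221 (163) in the ipsilateral comparisons, from 70 to 883 (428), 118 to 828 (291), 88 to 861 (397) and 100 to 1114 (210) in the contralateral ones, 70 to 725 (467) within injured and 126 to 946 (732) within sham mice, and 197 to 1143 (695) and 80 to 882 (330) in the tests of hemisphere differences. Median centring turned 51 higher and 346 lower calls in contralateral PTE− against sham into 328 and 119, 41 and 691 within sham mice into 315 and 212, and 631 and 64 in the hemisphere difference of injured against sham mice into 224 and 382. Apart from the fold threshold and fewer samples, the causes were not tested. TPM keep no depth, so what depth limits is unknown.

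Without the replicate block, so that the pairing of hemispheres by mouse was ignored, 1 member was called within injured mice, 0 within sham mice and 0 in both tests of hemisphere differences.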
